A study of Mus musculus with 15 samples.

Results

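The retinoid and aldehyde metabolism genes described here are 9 of the 44674 genes in the count table, taken by symbol: Aldh1a1, Aldh1a2, Aldh1a3, Aldh2, Adh1, Adh7, Rbp4, Crabp1 and Crabp2. Their expression was compared over 8 conditions in 15 bulk RNA-seq libraries of cultured mouse cells. Mice carrying Tie2-CreERT2 and Rosa26-tdTomato, in which a Cre recombinase driven by the Tie2 (Tek) promoter switches on the tdTomato reporter after tamoxifen, were used at 4 to 6 months of age, and their whole bone marrow was grown in EGM-2 endothelial medium. From the first culture (P0), cells positive for tdTomato and negative for CD45 were sorted by endomucin (Emcn), a surface sialomucin, into P0 Emcn+ and P0 Emcn- cells, both labelled BMEC (bone marrow endothelial cells). Emcn- cells of passages P1, P2, P3 and P4 are labelled BMEC too, and Lung Emcn- cells came from lung cultures of the same kind of mouse. BM MSC (marrow mesenchymal stromal cells) were tdTomato+ cells from Osx-Cre;Rosa26-tdTomato mice grown in MesenCult medium, so that cell type, mouse line and medium cannot be told apart in comparisons with them. GEO's labels give the genotype of the libraries as WT. There were 2 libraries per condition and 1 for P4, pairs of values below are given as replicate 1 and then replicate 2, and usually 1 mouse gave 1 dish. The labels do not say that replicates came from separate mice, but by the study's reporting summary they were independent biological samples, with separate primary cultures begun from separate animals.

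Vitamin A travels in blood as retinol bound to retinol binding protein (Rbp4). Inside cells, alcohol dehydrogenases such as Adh1 and Adh7 and short-chain dehydrogenases turn retinol into retinaldehyde, and the retinaldehyde dehydrogenases Aldh1a1, Aldh1a2 and Aldh1a3 oxidise that to retinoic acid. Retinoic acid binds the cellular proteins Crabp1 and Crabp2, switches on genes through nuclear receptors, and is broken down by Cyp26 enzymes. The same dehydrogenases clear reactive aldehydes, as does the mitochondrial enzyme Aldh2, which handles acetaldehyde. Aldehyde dehydrogenase activity is widely used to enrich stem and progenitor cells from marrow.

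Library totals ran from 9914620 counts in P0 Emcn- replicate 2 to 39718807 in P0 Emcn- replicate 1, and all 9 genes passed the filter on low counts. The summed level of 10 endothelial markers was 10626 to 12682 CPM (counts scaled to the library total) in P0 Emcn+ cells but 69.9 to 275 in P0 Emcn- cells and 44.8 to 70.4 in P1 to P4. Conversely, 7 mesenchymal markers summed to 191 to 242 CPM in P0 Emcn+ and 12341 to 16457 CPM in P0 Emcn- cells, so the marker transcripts of the Emcn- cells go against their endothelial label. None of the 10 endothelial markers was at 0 in every library of a condition, except Cldn5 in the P4 library. By the labels, replicate 1 of the P0 and lung conditions formed batch d and replicate 2 batch a, while the passaged cells lay in batches b and c and both BM MSC libraries in batch c. Batch and condition therefore cannot be told apart when P0 cells are compared with P1 cells or with BM MSC. In bulk libraries, fewer cells of a type and less RNA per cell cannot be told apart either.

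The genes lie on 5 mouse chromosomes (GRCm38), all as protein-coding genes. Adh7 (chr3:138217760-138233382) and Adh1 (chr3:138260991-138290698) are neighbours on the plus strand, 27.61 kb apart. Aldh1a1 (chr19:20492715-20643465, plus strand) lies 49.49 kb from Aldh1a7 (chr19:20692953-20727562, minus strand), a close relative in the same family, and 5.695% of its transcript words of 31 bases also occur in Aldh1a7, so that some reads could be assigned to either gene. Rbp4 (chr19:38116629-38125281, minus strand) is on the same chromosome, Aldh1a2 (chr9:71215789-71296243) and Crabp1 (chr9:54764748-54773110) are on the plus strand of chromosome 9, and Crabp2 (chr3:87948666-87953376) is on the plus strand of chromosome 3. Aldh1a3 (chr7:66390890-66427517) and Aldh2 (chr5:121566027-121593824) are on the minus strand. Exons of Aldh2, Adh1 and Adh7 each overlap 1 gene on the opposite strand, and without known strand in the counting their reads cannot be separated from those genes.

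Promoters are shown for Aldh1a1 and Aldh1a2, whose levels were highest in different conditions, and for the neighbours Adh1 and Adh7. They are RefSeq sequences of GRCm38.p6, read 5′ to 3′ on the plus strand up to the first annotated exon base in the 250 bases before the RefSeq start. Capitals mark, on either strand, the TATAAA box, the CCAAT box and half-sites of retinoic acid receptors in 4 spellings, which were AGGTCA as the usual form, then AGTTCA as a common variant, then GGGTCA as another and lastly GGTTCA. Of the 9 genes, 6 had a promoter in the table.
Aldh1a1 (chr19:20601718-20601960): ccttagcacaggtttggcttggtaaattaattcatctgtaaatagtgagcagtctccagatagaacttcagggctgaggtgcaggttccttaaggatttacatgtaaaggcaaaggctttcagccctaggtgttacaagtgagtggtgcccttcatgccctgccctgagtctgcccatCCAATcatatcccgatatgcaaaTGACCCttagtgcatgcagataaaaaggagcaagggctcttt
Aldh1a2 (chr9:71215539-71215788): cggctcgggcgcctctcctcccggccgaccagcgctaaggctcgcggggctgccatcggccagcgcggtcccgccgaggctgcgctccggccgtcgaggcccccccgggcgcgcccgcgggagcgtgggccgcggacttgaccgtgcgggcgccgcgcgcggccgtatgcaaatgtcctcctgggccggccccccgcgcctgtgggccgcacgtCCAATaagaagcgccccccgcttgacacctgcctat
Adh1 (chr3:138277335-138277493): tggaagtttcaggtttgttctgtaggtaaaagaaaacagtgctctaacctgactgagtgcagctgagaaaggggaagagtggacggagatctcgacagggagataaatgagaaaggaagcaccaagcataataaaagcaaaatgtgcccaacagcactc
Adh7 (chr3:138217523-138217759): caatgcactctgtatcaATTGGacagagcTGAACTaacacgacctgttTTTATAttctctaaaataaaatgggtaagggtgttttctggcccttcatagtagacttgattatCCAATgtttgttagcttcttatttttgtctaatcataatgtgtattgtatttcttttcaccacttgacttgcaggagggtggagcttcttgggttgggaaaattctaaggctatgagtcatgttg
In these stretches the Adh7 promoter held 2 CCAAT boxes, 1 TATAAA and 1 half-site, Aldh1a2 held 1 CCAAT box, and Adh1 held none of these motifs. The Aldh1a1 stretch shown held a CCAAT box 72 to 68 bases and a half-site (read as TGACCC) 49 to 44 bases before its start, and the window at the other RefSeq start of the gene (chr19:20492333-20492582) held none of the motifs. Among 32851 promoters of 250 bases, 12.4% held TATAAA, 33.8% CCAAT and 38.6% a half-site, so single matches are common. Direct repeats of half-sites with spacers of 1, 2 or 5 bases were found in 0.164%, 0.174% and 0.0883% of promoters and in none of the 8 windows of these genes.

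**Figure D1:**
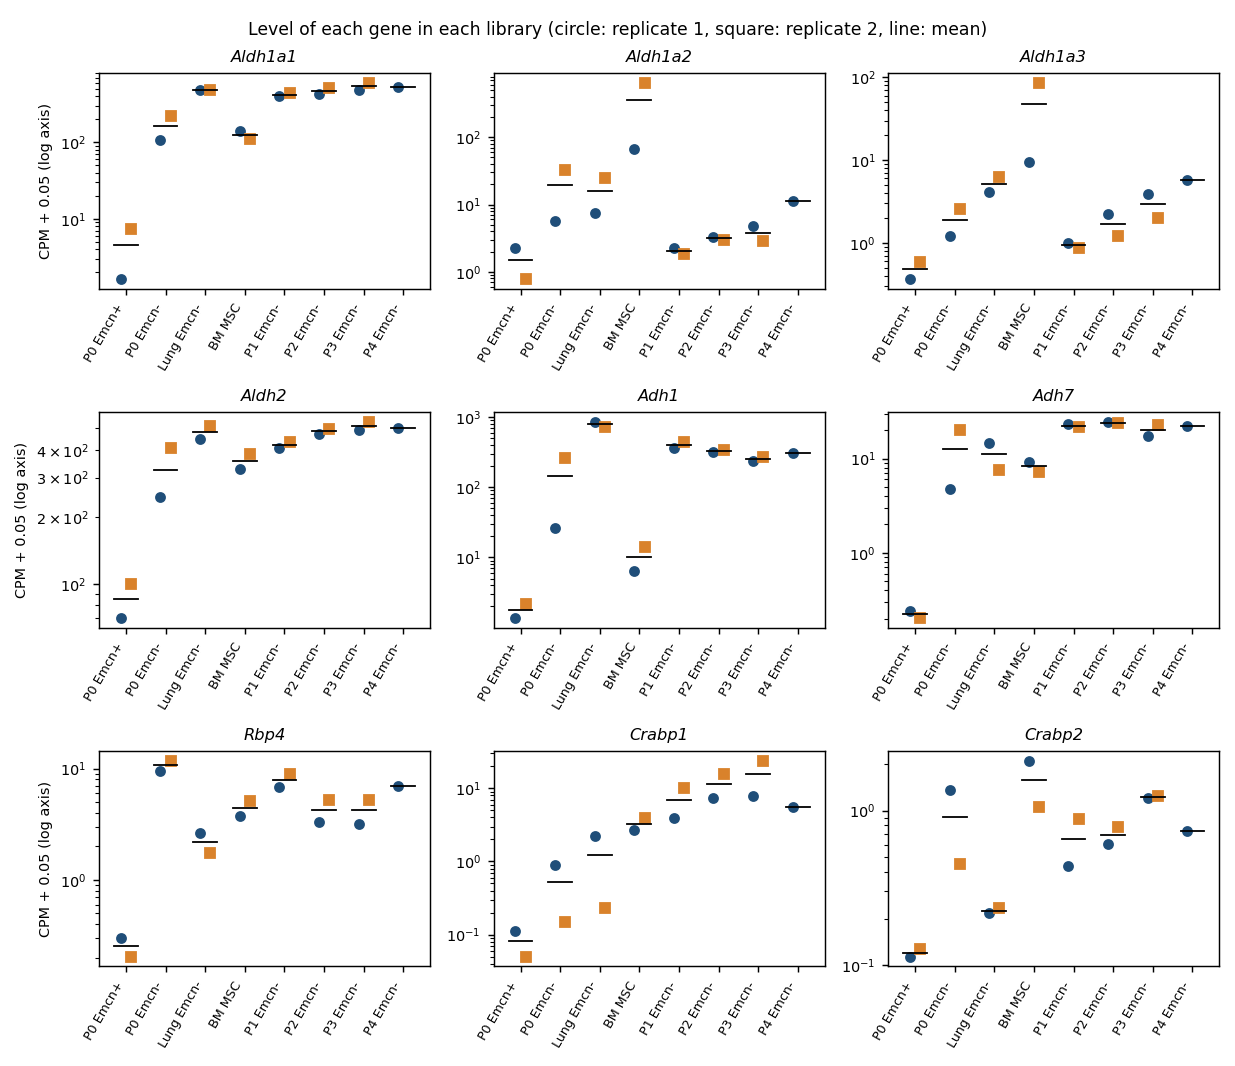
CPM of each of the 9 genes in every library, plotted as CPM plus 0.05 on a log axis against condition, with circles for replicate 1, squares for replicate 2 and a line at the mean. P0 Emcn+ cells have the lowest mean in all 9 panels, and Aldh1a2 and Aldh1a3 peak in BM MSC, where their replicates are far apart.

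P0 Emcn+ cells carried little of this pathway. Of the 9 genes, 7 were called lower in P0 Emcn+ than in P0 Emcn- cells, beside 11.4% of the 19401 genes tested, and none was called higher, beside 7.79%. With 1 library left out 5 or 6 were called, and 8 with DESeq2. DESeq2 called 2149 of all genes tested lower, where edgeR called 2213. A gene was called when its log2 fold change exceeded 1.5 in either direction with an edgeR p, adjusted by Benjamini-Hochberg over all genes, below 0.05. The 2 that were not called, Aldh1a3 and Crabp1, also had both P0 Emcn+ libraries below both P0 Emcn- libraries, as did 33.6% of all genes tested. The median log2 fold change of the 9 genes was -3.87 against -0.06 over all genes tested. Within batches a and d, each with 1 library per condition, every one of the 9 log2 ratios was negative, from -6.85 to -1.27 in batch a and from -5.99 to -1.27 in batch d. Of all genes tested, 36.4% had negative ratios in both batches. The markers moved with this result: mesenchymal markers, 7 of 7 called lower, and endothelial markers, 10 of 10 called higher, and their part in it was not tested. Macrophage markers summed to 542 to 548 CPM in P0 Emcn+ and 189 to 228 CPM in P0 Emcn- cells.

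Against the same P0 Emcn- libraries, fewer of the genes were called in the other conditions. Lung Emcn- cells had 1 gene lower (beside 1.7% of all genes) and none higher (beside 2.13%). BM MSC had 2 genes higher (beside 11.3%) and 1 lower (beside 7.45%), and P1 cells had 1 higher (beside 5.77%) and none lower (beside 3.07%). These comparisons share the P0 Emcn- libraries, which differed from each other 9.70-fold in Adh1 and 5.94-fold in Aldh1a2, so each is given by its own values. Relative to the mean of P1 to P3, BM MSC had 2 genes higher (beside 8.42%) and 3 lower (beside 5.81%). This test took the libraries of P1 to P3 as independent. The study passaged its cultures serially, and the labels do not say whether equal replicate numbers were 1 culture. Standard errors and p-values of BM MSC against P1 to P3 may therefore be too small.

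**Figure D2:**
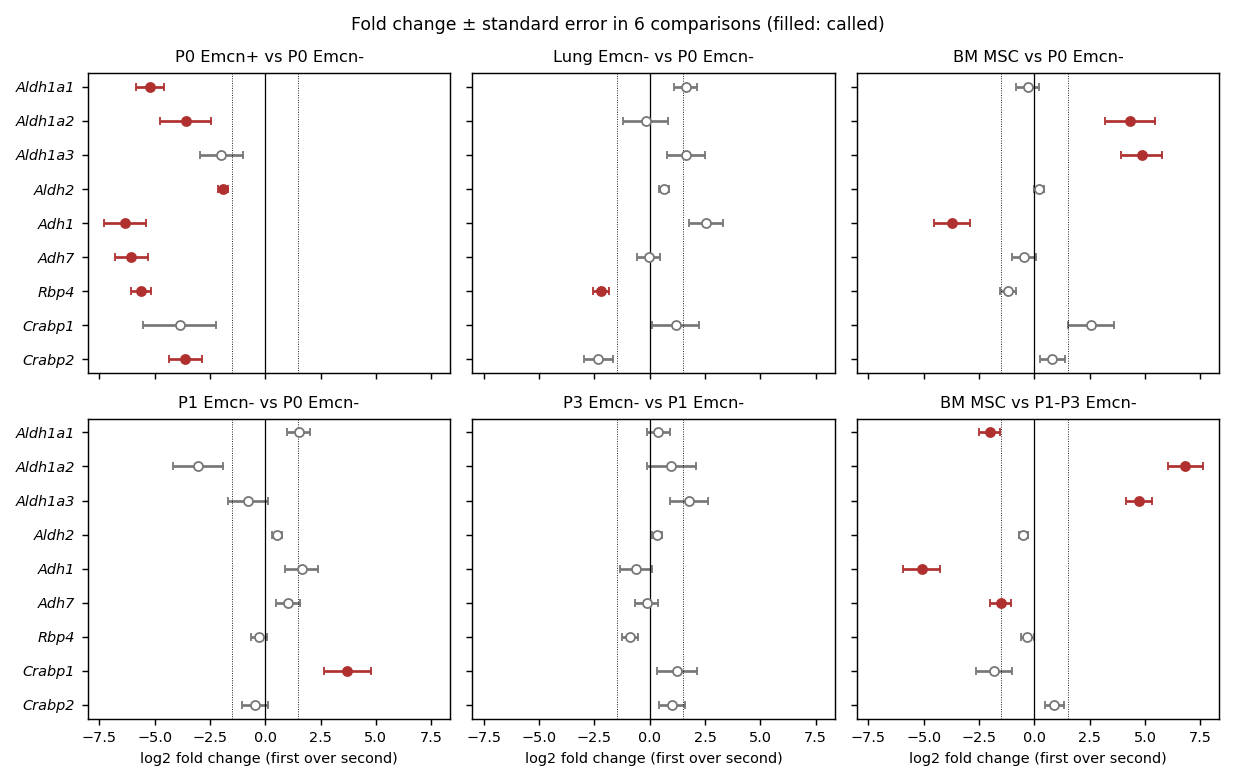
Log2 fold change of each gene (x axis, first condition over second) in 6 comparisons, from the edgeR fit, with a standard error derived from its test. Filled points are called genes, and dotted lines mark the fold limit of 1.5 on the log2 scale. The panel of P0 Emcn+ against P0 Emcn- lies wholly left of 0, and no point is filled for P3 against P1.

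Aldh1a1, a cytosolic retinaldehyde dehydrogenase, was at 1.58 and 7.27 CPM in P0 Emcn+ cells and at 108 and 225 CPM in P0 Emcn- cells. Its log2 fold change was -5.21 ± 0.62 (SE; adjusted p = 0.000141, edgeR), a level 37.1-fold lower in P0 Emcn+ cells. It ran from -6.65 without P0 Emcn+ replicate 2 to -4.46 without P0 Emcn+ replicate 1, and was called each time. The groups did not overlap, and the higher P0 Emcn+ library was far below the lower P0 Emcn- library.

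Lung Emcn- cells held 483 and 492 CPM of Aldh1a1, above both P0 Emcn- libraries, at a log2 difference of 1.62 ± 0.52 that missed the threshold (adjusted p = 0.12) and was called with the replicate block (1.79). P1 cells, at 403 and 443 CPM, likewise did not overlap P0 Emcn- cells (1.51 ± 0.52, adjusted p = 0.0717), and this difference too was called with the block (1.60). Over passages the level was 432 and 512 CPM in P2, 482 and 599 CPM in P3 and 533 CPM in P4. BM MSC, at 141 and 110.2 CPM, overlapped P0 Emcn- cells but lay below all 6 libraries of P1 to P3, and the log2 fold change of -2.01 ± 0.47 was called (adjusted p = 0.00969), though not without either BM MSC library. Aldh1a1 was thus lowest in P0 Emcn+ cells, at an intermediate level in P0 Emcn- cells and BM MSC, and higher in lung and passaged Emcn- cells, with both lung libraries inside the range of the passaged ones.

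Aldh1a2, the main retinoic acid source of the embryo, also had its lowest mean in P0 Emcn+ cells. Unlike Aldh1a1, it was highest in BM MSC, at 66.3 and 639.9 CPM. These 2 libraries of the same batch differed 9.65-fold, yet the lower of them was above each of the other 13 libraries. P0 Emcn- cells had 5.54 and 32.9 CPM and lung Emcn- cells 7.32 and 24.5 CPM. In P1 to P3 the 6 libraries ranged from 1.79 to 4.74 CPM, P4 had 11.1 CPM, and P0 Emcn+ cells had 2.19 and 0.73 CPM.

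The log2 fold change of Aldh1a2 in BM MSC was 6.82 ± 0.79 over P1 to P3 (adjusted p = 0.00023) and 4.32 ± 1.13 over P0 Emcn- cells (adjusted p = 0.0148). Without BM MSC replicate 2 they were 4.46 and 1.93, and the second was then no longer called, nor was it without P0 Emcn- replicate 1. Within batch c alone the log2 ratio of BM MSC to passaged cells was 6.29. In P0 Emcn+ against P0 Emcn- cells it was -3.60 ± 1.17 (adjusted p = 0.037), and this call was lost with the replicate block (-3.03), in a fit of those groups alone, without either of the P0 Emcn+ libraries (-4.60 and -3.03) and without replicate 2 of P0 Emcn- (-1.86).

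Aldh1a3, the third retinaldehyde dehydrogenase, followed a like order, at 9.51 and 85.4 CPM in BM MSC, 4.09 and 6.18 CPM in lung cells, 1.16 and 2.52 CPM in P0 Emcn- cells and 0.32 and 0.54 CPM in P0 Emcn+ cells. Among passaged cells it ranged from 0.82 to 3.89 CPM in P1 to P3 and was 5.66 CPM in P4. It was called higher in BM MSC against P0 Emcn- cells (4.85 ± 0.94, adjusted p = 0.00348) and against P1 to P3 (4.73 ± 0.59, adjusted p = 0.000346). Without BM MSC replicate 2 these log2 values were 2.55 and 2.47. Its difference between P0 Emcn+ and P0 Emcn- cells was -1.98 ± 0.98 (adjusted p = 0.154).

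The BM MSC library with more Aldh1a2 and Aldh1a3, replicate 2, also had more endothelial marker transcript, 362 CPM against 42.7 CPM in replicate 1, with Cdh5 (VE-cadherin) at 156 against 7.86 CPM. Its mesenchymal markers were lower (7376 against 14197 CPM) and its adipogenic stromal markers higher (5301 against 1853 CPM). The part of these differences in the Aldh1a2 and Aldh1a3 values was not tested.

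Levels of the 3 isozymes can be compared only per length, so CPM was divided by the kilobases of annotated exon. On that scale Aldh1a1 made up 98.6% and 98.9% of the summed Aldh1a1, Aldh1a2 and Aldh1a3 level in P1 cells, 97.1% or more in each P2 and P3 library and 94.6% in P4. Its share was 96.0% and 89.1% in lung cells and 89.0% and 75.1% in P0 Emcn- cells. In BM MSC it was 47.7% in replicate 1 and 6.9% in replicate 2, where Aldh1a2 had 48.9% and 87.4% and Aldh1a3 3.44% and 5.72%. On that scale, the isozyme that dominated the passaged Emcn- cells was a minor part in 1 BM MSC library and close to level with Aldh1a2 in the other. The near tie depended on the division by length. Without it, Aldh1a1 had 65.0% and Aldh1a2 30.6% in BM MSC replicate 1, and 13.2% and 76.6% in replicate 2.

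The summed level was 1.36 and 1.91 CPM per kb in P0 Emcn+ cells, 24.6 and 60.55 in P0 Emcn- cells, 102 and 111.8 in lung cells, 59.9 and 323.5 in BM MSC and 82.9 to 123.1 over P1 to P4. P0 Emcn+ cells had shares of Aldh1a1 of 23.7% and 76.9%, at levels too low to read an order from them.

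**Figure D3:**
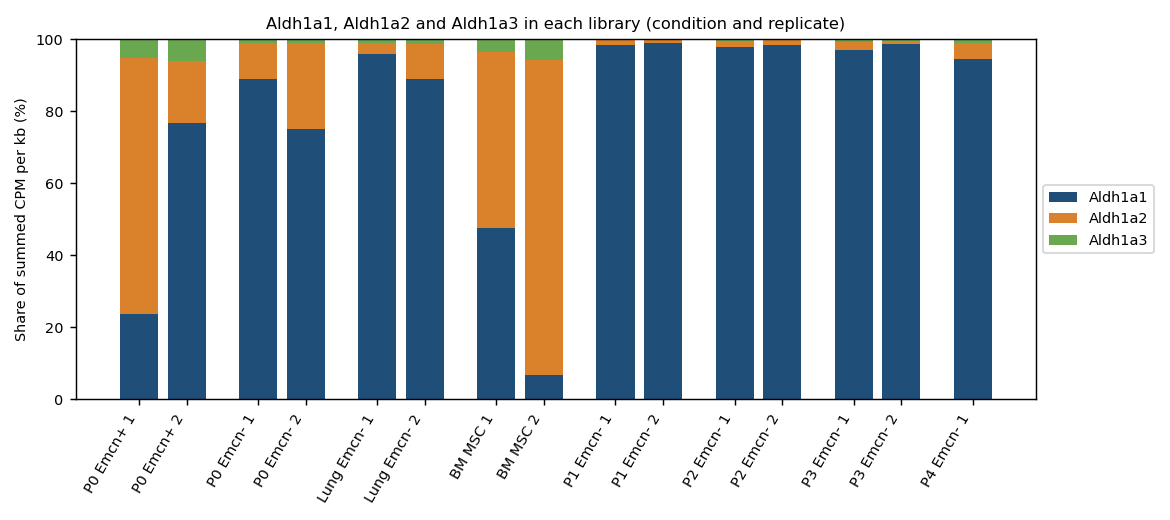
Share (%) of Aldh1a1, Aldh1a2 and Aldh1a3 in their summed CPM per kb, 1 bar per library, labelled by condition and replicate. Bars of passaged cells are almost wholly Aldh1a1 (94.6% or more), while Aldh1a2 takes 48.9% and 87.4% of the BM MSC bars.

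Aldh2, the mitochondrial enzyme that clears acetaldehyde, had the smallest ratio of highest to lowest library of the 9 genes. P0 Emcn+ cells had 70.3 and 99.9 CPM, and P0 Emcn- cells 245 and 406 CPM, a log2 fold change of -1.90 ± 0.24 (adjusted p = 0.000204) that came to -1.49, under the fold limit, without P0 Emcn- replicate 2. Lung cells had 448 and 512 CPM, BM MSC 329 and 382 CPM, and P1 to P4 from 408 to 535 CPM. No other of the 6 comparisons called Aldh2, with log2 differences from -0.50 (BM MSC against P1 to P3, adjusted p = 0.0772) to 0.63 (lung against P0 Emcn-, adjusted p = 0.181).

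Adh1, the class I alcohol dehydrogenase, separated the conditions widely. Lung Emcn- cells had 854 and 721 CPM, above every other library, and P1 to P4 had 234 to 442 CPM. P0 Emcn- cells had 26.6 CPM in replicate 1 and 258 CPM in replicate 2, BM MSC 6.4 and 13.9 CPM, and P0 Emcn+ cells 1.33 and 2.13 CPM. Apart from P3 and P0 Emcn- cells, conditions next to each other in this order did not overlap.

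For Adh1 the log2 fold change was -6.33 ± 0.95 in P0 Emcn+ against P0 Emcn- cells (adjusted p = 0.000598) and -5.09 ± 0.83 in BM MSC against P1 to P3 (adjusted p = 0.00142). The first was -3.92 without P0 Emcn- replicate 2 and -7.18 without replicate 1, and was called in both fits, and the second was -5.25 within batch c. In BM MSC against P0 Emcn- cells it was -3.72 ± 0.82 (adjusted p = 0.00666), but without P0 Emcn- replicate 2 it was -1.34 and no longer called, and the call was also lost without BM MSC replicate 1. Lung and P1 cells lay above P0 Emcn- cells without overlap, by 2.55 ± 0.77 (adjusted p = 0.0981) and 1.66 ± 0.75 (adjusted p = 0.147), and without P0 Emcn- replicate 2 these became 4.94 and 4.04 and were called. The within-batch log2 ratio of lung to P0 Emcn- cells was 1.53 in batch a and 5.08 in batch d.

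Adh7, the class IV enzyme active on retinol, stood next to Adh1 on the chromosome but was ordered differently. It was at 0.19 and 0.15 CPM in P0 Emcn+ cells and 4.71 and 20.2 CPM in P0 Emcn- cells (-6.05 ± 0.75, adjusted p = 0.000187, and -4.69 without P0 Emcn- replicate 2, still called). P1 to P4 had 17.2 to 24.5 CPM, lung cells 14.6 and 7.47 CPM, and BM MSC 9.21 and 7.21 CPM. Where Adh1 was highest in lung cells, Adh7 there overlapped P0 Emcn- cells (-0.05 ± 0.53, adjusted p = 1), with opposite within-batch log2 ratios of -1.38 in batch a and 1.70 in batch d. BM MSC lay below every P1 to P3 library, and the log2 fold change of -1.51 ± 0.47 (adjusted p = 0.0333) was at the fold limit, so that the call was lost with the replicate block (-1.53), with DESeq2 (-1.49), with RLE factors, another scaling (-1.49), with library totals (-1.42) and in 7 of the 8 fits without 1 library.

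Rbp4, the carrier of retinol, was highest in P0 Emcn- cells, at 9.52 and 11.7 CPM. It was at 0.25 and 0.15 CPM in P0 Emcn+ cells (log2 fold change -5.61 ± 0.46, adjusted p = 1.43e-05) and 2.60 and 1.71 CPM in lung cells (-2.21 ± 0.37, adjusted p = 0.00876). The lung value was the 1 call of the 9 genes there, and it was lost in a fit of the compared groups alone (-2.23). Both differences had the same direction within batch a (-5.68 and -2.68) and batch d (-4.85 and -1.76).

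BM MSC had 3.70 and 5.05 CPM of Rbp4, a log2 difference of -1.18 ± 0.36 from P0 Emcn- cells with an adjusted p of 0.0269 that did not reach the fold limit. P1 cells had 6.72 and 8.93 CPM, P2 cells 3.24 and 5.17, P3 cells 3.10 and 5.22, and P4 cells 6.98 CPM. In P3 against P1 the log2 difference was -0.88 ± 0.35 (adjusted p = 0.314).

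Crabp1, which binds retinoic acid in the cytosol, was near the limit of detection in P0 cells, with 2 and 0 counts in P0 Emcn+ and 33 and 1 counts in P0 Emcn- cells. The level in P0 Emcn- cells was 19.67 times that in P0 Emcn+ cells (exact 95% counting interval 5.04 to 169), but 33 of the 34 counts were of 1 library. The fit was not called (adjusted p = 0.1), its log2 value was -7.03 to -1.38 with 1 library left out, and the ratio was -1.27 in batch a and -2.73 in batch d. It was called with DESeq2 (-3.84) and with the replicate block (-3.66). Lung cells had 2.18 and 0.18 CPM and BM MSC 2.67 and 3.84 CPM.

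In passaged cells Crabp1 was at 3.87 and 9.94 CPM in P1, 7.27 and 15.5 in P2, 7.90 and 23.8 in P3 and 5.47 in P4. It was called higher in P1 than in P0 Emcn- cells (3.71 ± 1.07, adjusted p = 0.0406), a call lost when any 1 of the 4 libraries was left out, with log2 values from 2.93 to 6.17. Batch c was above batch b at each of P1, P2 and P3, by 2.57-fold, 2.13-fold and 3.01-fold. BM MSC, all of batch c, was below the passaged cells by a log2 difference of -1.81 ± 0.82 (adjusted p = 0.123), which was -2.31 within batch c and was called with the replicate block (-2.32). With the block (3.09) and with DESeq2 (2.81) it was also called higher in BM MSC than in P0 Emcn- cells (in edgeR without the block 2.57 ± 1.05, adjusted p = 0.0815).

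Crabp2, which carries retinoic acid to its nuclear receptors, stayed at or below 2.05 CPM in all 15 libraries. Each P0 Emcn+ library had 2 counts, against 52 and 4 in P0 Emcn- cells, so the level in P0 Emcn- cells was 16.2 times higher (exact 95% counting interval 5.99 to 61.5). The gene was called lower (-3.62 ± 0.74, adjusted p = 0.0037), but not without P0 Emcn- replicate 1. BM MSC had 2.05 and 1.00 CPM, P1 to P4 0.39 to 1.18 CPM and lung cells 0.17 and 0.18 CPM, below both P0 Emcn- libraries (-2.32 ± 0.66, adjusted p = 0.0764). No other comparison called it, and its place among these conditions rests on few counts.

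The other genes of the pathway were taken from lists of 64 genes, of which 52 passed the filter. In P0 Emcn+ against P0 Emcn- cells 3 of them were called higher (5.77%, beside 7.79% of all genes) and 12 lower (23.1%, beside 11.4%), with a median log2 fold change of -0.74. Of 15 other aldehyde dehydrogenases tested, 4 were called lower, among them Aldh6a1, a mitochondrial enzyme of valine breakdown, at 26.6 ± 0.768 CPM against 108 ± 68.2 (SD, n = 2; log2 fold change -1.98 ± 0.33), which was -1.12 without P0 Emcn- replicate 2. The retinol dehydrogenase Dhrs9 (-2.59), the carbonyl reductase Cbr3 (-2.06) and the retinoic acid hydroxylase Cyp26b1 (-4.82) were lower as well.

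Of the 7 retinoic acid response genes tested, 5 were called lower in P0 Emcn+ cells (71.4%, beside 11.4% of all genes). The lists overlap, and some of these genes are also counted as receptors or enzymes of the pathway. The share is therefore not separate from the counts above. Of 6 genes of retinol uptake, storage and binding, 0 were called. Of 11 genes that interconvert retinol and retinaldehyde, 2 were called lower (18.2%) and 1 higher (9.09%). Of 8 other alcohol dehydrogenases and aldehyde reductases, 1 was called lower and 1 higher (12.5% each). Receptors had 2 of 6 lower (33.3%) and breakdown enzymes 1 of 2 (50%), with 0 higher. Over all genes, 11.4% were called lower and 7.79% higher. Rarres2, which encodes chemerin, was at 1.17 ± 0.262 CPM against 137 ± 90.4 (SD, n = 2; -6.84 ± 0.59, adjusted p = 1.94e-05), and the receptor gene Rarb fell by 2.62 on the log2 scale. Tgm2, a transglutaminase abundant in endothelium, was higher, at 467 ± 68.3 against 83.6 ± 58.1 CPM (2.50 ± 0.52, adjusted p = 0.00392), as was the retinol dehydrogenase Rdh12 (15.1 against 2.05 CPM, 2.82 ± 0.59). The call of Rarb was lost without replicate 1 of either condition. In a fit of the compared groups alone the calls of Rdh12 (2.84, adjusted p = 0.0502) and Rarb (-2.58, adjusted p = 0.0632) were lost.

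In lung Emcn- against P0 Emcn- cells, 2 of the 52 were called higher (3.85%, beside 2.13% of all genes) and 2 lower (3.85%, beside 1.7%). Aldh1a7, the neighbour of Aldh1a1, was at 17.8 and 26.8 CPM in lung and 1.61 and 1.11 CPM in P0 Emcn- cells (4.04 ± 0.59, adjusted p = 0.00506). Lrp2, or megalin, an uptake receptor for retinol binding protein, had 376 counts in the lung libraries (2.79 and 12.7 CPM) and 0 in both P0 Emcn- libraries, which makes it at least 107.4-fold higher against 3 counts over the group. Leaving out replicate 1 of P0 Emcn- ended its call. Lung replicate 2, with more Lrp2, also had more mesothelial marker transcript (15.4 against 3.34 CPM) and endothelial marker transcript (622 against 166 CPM), and their part was not tested. Rarres2 was lower (-2.54 ± 0.47), a call lost without either lung library, and the fit of the compared groups alone called neither Lrp2 nor Rarres2.

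In BM MSC, 5 of the 52 were called higher (9.62%, beside 11.3% of all genes) and 6 lower (11.5%, beside 7.45%) than in P0 Emcn- cells. Cyp26b1, at 54.8 ± 6.83 against 10.55 ± 5.48 CPM (2.51 ± 0.67), and Dhrs9, at 26.6 against 5.05 CPM (2.52 ± 0.43), were higher, as were Aldh1a7 (2.05) and Aldh3a1 (4.71). The folate enzyme Aldh1l1 was lower, at 12.8 ± 5.13 against 105.5 ± 17.4 CPM (-2.96 ± 0.26, adjusted p = 4.01e-05), with Rarb (-3.15), Rarres2 (-2.47) and Tgm2 (-2.42). The calls of Cyp26b1, Aldh1a7, Aldh3a1, Rarb and Tgm2 were each lost when some single library was left out, and those of Rarres2 and Tgm2 in a fit of the compared groups alone.

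Relative to P1 to P3 cells, 2 were called higher (3.85%, beside 8.42% of all genes) and 5 lower (9.62%, beside 5.81%) in BM MSC. Aldh1l1 (-3.38 ± 0.24), Rarb (-3.29 ± 0.68), Tgm2 (-1.84) and Aldh6a1 (-1.65) were lower, with the call of Rarb lost without BM MSC replicate 2 and that of Tgm2 without BM MSC replicate 1. Rarres1 was higher (2.28 ± 0.26), and so was the mitochondrial folate enzyme Aldh1l2 (1.63), whose call was lost with the replicate block (1.65) and without most single libraries. BM MSC thus had the highest Aldh1a2 and Aldh1a3 levels. Their Rarb levels were 0.93 and 0.55 CPM, against 2.57 to 12.4 CPM in P1 to P3. The retinoic acid response genes were mixed. Of 7 tested, 1 was called higher (14.3%, beside 8.42% of all genes) and 2 lower (28.6%, beside 5.81%). Within batch c the log2 ratio of BM MSC to passaged cells was -3.69 for Rarb but 1.35 for Cyp26b1.

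From P0 to P1, 2 of the 52 were called higher (3.85%, beside 5.77% of all genes) and 2 lower (3.85%, beside 3.07%), shares close to the background. Mesenchymal markers summed to 12341 to 16457 CPM in P0 Emcn- and 5396 to 6020 CPM in P1 cells, and their part in these values and those of the 9 genes was not tested. Dhrs9 was at 50.2 and 44.1 CPM in P1 and 4.46 and 5.65 CPM in P0 Emcn- cells (3.40 ± 0.44, adjusted p = 0.000872), and Aldh1a7 was higher too (1.97). Lower were Aldh18a1, an enzyme of proline synthesis (-1.52), and Aldh1l2 (-2.67), which was -0.62 without P0 Emcn- replicate 1 and was not called with the replicate block (-2.46). The call of Dhrs9 held whichever of the 4 libraries was left out, and those of Aldh1a7, Aldh18a1 and Aldh1l2 did not, nor did these 3 in a fit of the compared groups alone. With library totals in place of TMM factors the median of all genes moved by -0.156 on the log2 scale in this comparison, and none of the 9 genes changed direction.

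Between P1 and P3, none of the 9 genes was called by edgeR, beside 0.0773% of all genes called higher and 0.144% lower. At an unadjusted p under 0.05 there was 1, Rbp4, and the share of all genes at that limit was not computed. DESeq2 also called 0 of the 9, beside 303 of all 19401 genes. None of the other 52 was called either. Values within batches are given because they were seen to run in 1 direction: Aldh1a1 was higher in P3 than in P1 by 0.30 on the log2 scale in batch b and 0.46 in batch c, Aldh1a2 by 1.13 and 0.65, Aldh1a3 by 2.01 and 1.21, Aldh2 by 0.31 and 0.33, Crabp1 by 1.07 and 1.28 and Crabp2 by 1.48 and 0.51. Adh1 differed by -0.57 and -0.67 and Rbp4 by -1.05 and -0.74, and Adh7, at -0.38 and 0.09, had no common direction. The share of all genes with a common direction in both batches was not computed, so nothing is concluded from this agreement. Marker sums moved with passage as well. Adipogenic stromal markers were at 3200 to 3384 CPM in P1 and 982 to 1374 CPM in P3, osteolineage markers at 1446 to 1780 and 5408 to 5611 CPM, and macrophage markers at 69.6 to 223 and 14.0 to 17.2 CPM, and their part was not tested. P4, with 1 library in batch b, did not continue the order for Adh1 (304 CPM, against 234 CPM in P3 of that batch), Rbp4, Crabp1 or Crabp2.

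Chosen after their values were seen, Cyp26b1, Dhrs9, Dhrs3 and Rarres2 had the same kind of course. Cyp26b1 was at 12.7, 42.5, 81.3 and 107 CPM in P1 to P4 of batch b and 10.15, 25.7 and 32.4 CPM in P1 to P3 of batch c (P3 against P1 2.36 ± 0.65, adjusted p = 0.161). Dhrs3, which reduces retinaldehyde back to retinol, was at 65.9, 28.4, 15.8 and 18.2 CPM in batch b and 97.9, 60.7 and 32.6 CPM in batch c (-1.73 ± 0.44, adjusted p = 0.125). Dhrs9 and Rarres2 had log2 differences of 1.13 ± 0.39 (adjusted p = 0.247) and -1.90 ± 0.46 (adjusted p = 0.117). The breakdown enzyme and Dhrs9 were higher, and Dhrs3 and Rarres2 lower, in P3 than in P1 in both batches. None was called in the edgeR fit, which had no batch terms. The genes were chosen by their values, so nothing is concluded from their agreement between batches.

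**Figure D4:**
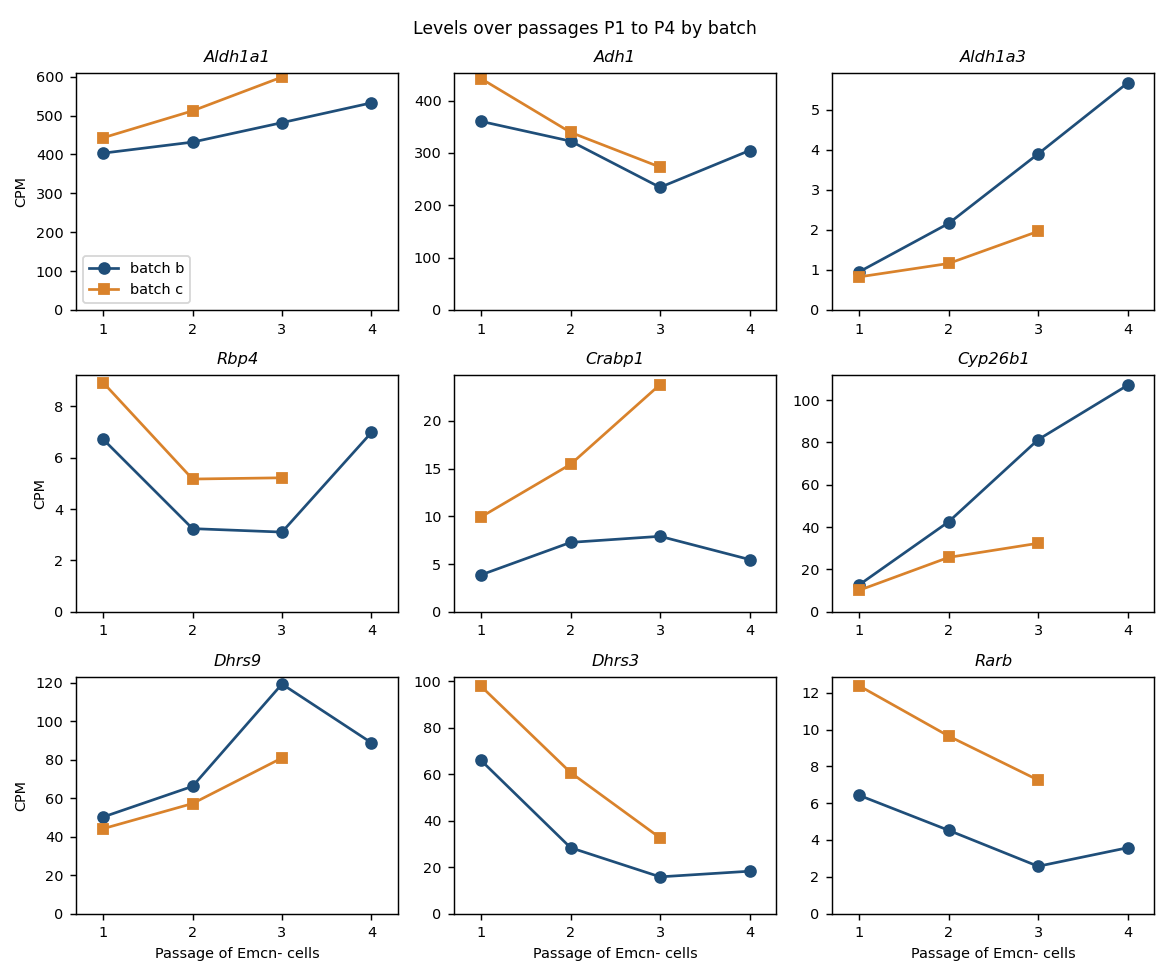
CPM of 9 genes (y axis, from 0) against passage of Emcn- cells (x axis), with a line for batch b (P1 to P4) and a line for batch c (P1 to P3), 1 library per point. Cyp26b1 runs from 12.7 to 107 CPM in batch b and Dhrs3 from 97.9 to 32.6 CPM in batch c, and Crabp1 and Rarb lie higher in batch c at each passage.

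By Pearson correlation of log2 CPM over the 8 condition means, among 11304 genes of at least 10 CPM in some condition, the genes most like each of the 9 were as follows. Spon2 (r = 0.997), Pmm1 and Serpina3m were most like Aldh1a1, and Aldh1a1 itself was among the 3 most like Aldh2 (r = 0.992), with Siva1 and Smoc2. Gabra3 (r = 0.996), Adhfe1 and Pla2r1 were most like Adh1, whereas Adh7 was closest to Ahcyl1 (r = 0.997), Vdr and Magi2. Aldh1a2 was closest to Ttc19 (r = 0.985), Yipf5 and Rnf170, and Aldh1a3 to Tbc1d8b (r = 0.991), Mppe1 and Gnpnat1. Uap1 (r = 0.988), Phactr1 and Psd4 were most like Rbp4, Hopx (r = 0.991), Vps41 and Timp2 most like Crabp1, and Serpine2 (r = 0.966), Cspg4 and Tenm4 most like Crabp2. With 8 points that share the low P0 Emcn+ condition these values are descriptions, and by Spearman correlation 0 or 1 of each set of 3 was kept.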

How the data were processed

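Bulk RNA-seq libraries were made by the authors from total RNA with the KAPA RNA HyperPrep kit. The paper's methods name different Illumina sequencers for different batches of biological replicates. How these match batches a to d was not examined, so differences between batches may include the sequencer. Per the paper's methods and the submitters' processing notes, the authors mapped reads to GRCm38 with STAR, estimated transcript abundance with Salmon in the nf-core pipeline and summarised it per gene with tximport. They deposited the estimated counts of 44674 genes as whole numbers without normalization, and the rounding and the use of strand are not given in the sources used here. CPM was computed on library totals (9914620 to 39718807 counts, at which 3 counts equal 0.0755 to 0.303 CPM). Intervals and limits cover counting error only. A chi-square test of replicate counts over genes gave 38.61 to 129.5 per degree of freedom, so replicates of each of the 7 replicated conditions differed by more than sampling noise.

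Groups, replicates and batches came from the labels, and that lung cells were Emcn- from the paper. Tests used edgeR 4.0.16 in R 4.3.3 (TMM, filterByExpr with a minimum count of 10 and total of 15, quasi-likelihood test, 1 coefficient per condition over all 15 libraries, 19401 genes, 7 residual and 3.068 prior degrees of freedom), with Benjamini-Hochberg adjustment over all genes. Calls needed an adjusted p below 0.05 with a log2 fold change beyond 1.5 either way. Standard errors were derived from the F statistic of the quasi-likelihood test, as the absolute log2 fold change over its square root. They therefore carry the same information as the p-value and are not a separate measure of spread. The script was tested on simulated data. The members, lists and tests were chosen with earlier results of these data known. Named pathway genes are at most the 6 called per direction with the largest fold change and a mean of at least 5 CPM in the higher group, others being marked as chosen later. Gene positions and lengths come from GENCODE M21 and promoters from RefSeq.

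Alternatives were DESeq2 1.42.0 (Wald, and ashr 2.2.63 shrinkage), RLE factors, no filter, 50 counts in 2 libraries, a replicate block (2 batch terms), only the compared groups, no fold limit, each library left out and, added after seeing the data, library totals. Leaving out 1 library leaves a lone one, assumed to vary like the other groups. By the batch labels, equal replicate numbers mean 1 shared batch among the P0 and lung libraries, and likewise among P1, P2 and P3. Deviations from the group means correlated between such pairs by 0.139 to 0.209 in the former and 0.354 to 0.451 in the latter. Both BM MSC libraries are of batch c, so the block pairs no BM MSC library.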

Additional observations from a re-analysis of the deposited data

How the results depend on the processing

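Over the alternatives, 668 of 737 values of the 9 genes in the 6 comparisons kept their direction and their side of the threshold, 34 lost a call, 24 gained one and 11 changed direction. In lung against P0 Emcn- cells the count of called genes was 1, but 3 with DESeq2, 2 with ashr shrinkage, 3 without a filter, 2 with the replicate block, 0 with only the compared groups and 1 to 3 with a library left out. In P1 against P0 Emcn- cells it was 1, but 3 with DESeq2, 2 without a filter, 2 with the replicate block, 0 with only the compared groups and 0 to 3 with a library left out. In BM MSC against P0 Emcn- cells it was 3, but 4 with DESeq2, with ashr and with the block, 2 with any library left out and 0 with only the compared groups, and against P1 to P3 it was 5, but 3 to 5 with a library left out. Calls over all genes changed as well. In lung against P0 Emcn- cells they were 743 of 19401, 1029 (DESeq2), 874 (ashr), 846 (block), 951 of 30660 (no filter) and 145 of 15414 (compared groups). In P1 against P0 Emcn- cells they were 1715, 1945 (DESeq2), 1979 (block), 1901 (no filter) and 968 of 16028 (compared groups). In BM MSC against P0 Emcn- cells they were 3630, 3468 (DESeq2), 2999 (ashr), 3566 (block) and 2396 of 16623 (compared groups). The block changed no call of the 9 genes other than those given beside their results. Fits without 1 library or with only the compared groups rest on fewer libraries, and the cause of the other changes was not tested. Changes of direction were confined to values that were not called. Leaving out 1 library gave log2 values in lung against P0 Emcn- cells of -1.25 to 1.55 for Aldh1a2, -0.78 to 1.29 for Adh7 and -1.60 to 3.66 for Crabp1, and with the block Adh7 was at 0.15. In BM MSC against P0 Emcn- cells they were -0.75 to 0.29 for Aldh1a1, -0.11 to 0.60 for Aldh2 and -1.20 to 0.87 for Adh7, in P1 against P0 Emcn- cells -1.07 to 0.72 for Crabp2, and in P3 against P1 -0.31 to 0.013 for Adh7. P0 Emcn- replicate 2, the shallowest library, was the one left out in 4 of these 11 values. Shares of Aldh1a1 without division by length were 99.3% in P1, 99.0% in P2 and 97.0% in P4.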
